A study of Mus musculus with 6 samples.

Results

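Apolipoproteins are the protein parts of lipoproteins, the particles that carry triglyceride and cholesterol in blood, and the liver makes most of them. The genes described here were 10 of the 12393 genes measured, taken by symbol from the array annotation: Apoa1, Apoa2, Apoa4, Apoa5, Apob, Apoc1, Apoc3, Apoe, Mttp and Lcat. They were covered by 15 of the 22626 probe sets tested, 4 for Apoa1, 2 each for Apoa4 and Mttp, and 1 for each of the others. Their signal was compared between livers of male C57BL/6J mice that drank source water (DSW in the labels) for 90 d and livers of control mice that drank distilled water. Both groups fed freely under a regular light and dark cycle. Each group started with 10 mice, 9 were selected, and RNA was taken from the joint homogenate of 3 livers at a time, so that 3 pools per group were hybridised to 3 Affymetrix 3′ expression arrays. A replicate is therefore a pool of 3 mice, the spread between animals was not measured, and the number of arrays limits the precision. The labels do not state the origin or composition of the water, the age of the mice or the time of day at which livers were taken.

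In hepatocytes, apolipoprotein B is loaded with triglyceride by the microsomal triglyceride transfer protein, the product of Mttp, and leaves the cell in very-low-density lipoprotein. Apolipoproteins A-I and A-II form the frame of high-density lipoprotein, on which the enzyme LCAT esterifies cholesterol. The A-IV, A-V, C-I and C-III proteins move between particles and set how fast triglyceride is hydrolysed and cleared, and apolipoprotein E is the ligand by which remnants are taken up. On mouse chromosome 9 Apoa1, Apoc3, Apoa4 and Apoa5 are consecutive protein-coding genes, and on chromosome 7 Apoc1 lies next to Apoe.

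Promoter windows from RefSeq (build GRCm38.p6, 250 bases before to 50 after the listed start) matched 8 of the 10 genes, and 3 are shown. Apoa4 and Mttp are the genes whose signal differed most between the groups. Apoa1 is from the same cluster as Apoa4 and showed no such difference, but its probe sets lie near the top of the signal range. Capitals mark matches, on either strand, to CAAAGTNCA, a sequence of the type bound by HNF4A, to TGACG, which is part of the cyclic AMP response element, or to AGGTCA, the half-site of nuclear receptors.
Apoa4, chr9:46240594-46240893, + strand: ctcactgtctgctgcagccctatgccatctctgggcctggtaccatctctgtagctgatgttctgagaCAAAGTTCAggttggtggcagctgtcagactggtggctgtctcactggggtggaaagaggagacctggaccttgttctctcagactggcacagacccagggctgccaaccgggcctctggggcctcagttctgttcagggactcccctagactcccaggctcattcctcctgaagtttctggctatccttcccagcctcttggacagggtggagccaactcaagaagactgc
Mttp, chr3:138143369-138143668, - strand: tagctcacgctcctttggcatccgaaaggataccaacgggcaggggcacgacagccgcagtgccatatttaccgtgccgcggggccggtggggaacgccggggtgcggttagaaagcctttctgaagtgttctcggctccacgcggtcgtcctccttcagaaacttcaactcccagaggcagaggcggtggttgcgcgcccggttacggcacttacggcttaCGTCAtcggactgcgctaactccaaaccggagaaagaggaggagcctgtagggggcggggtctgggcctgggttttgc
Apoa1, chr9:46228380-46228679, + strand: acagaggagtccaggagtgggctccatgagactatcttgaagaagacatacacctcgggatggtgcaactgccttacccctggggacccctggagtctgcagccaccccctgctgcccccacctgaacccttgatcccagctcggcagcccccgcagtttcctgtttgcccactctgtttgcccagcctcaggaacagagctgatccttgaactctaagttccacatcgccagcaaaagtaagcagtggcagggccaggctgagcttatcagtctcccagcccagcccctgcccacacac
The Apoa4 window held CAAAGTTCA, whose first base is at position -182 from the listed start, and 1.41% of all 32851 promoter windows hold CAAAGTNCA. The Mttp window held TGACG on the opposite strand, shown as its reverse complement with the first base at position -28, and 20.8% of all windows hold TGACG. The nuclear receptor half-site AGGTCA, found in 16.3% of all windows, was not among the letters of these 3. The patterns do not overlap each other in these windows. Of the windows not shown, 1 of Apoa2, whose log2 difference was 0.03, held TGACG at position -23. The other Apoa2 window held the reverse complement of AGGTCA at position -238. All of these are matches of letters, and binding was not measured.

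In these livers 0 of the 10 genes passed the limma test over all probe sets. The values furthest apart between the groups were those of Apoa4, at 2.03-fold and 2.30-fold in source water by its probe sets and highest in 1 pool, and of Mttp, by a smaller and steadier margin. In pooled tissue, fewer cells of a type and less RNA per cell cannot be told apart. Over the 15 probe sets, 8 were higher and 7 lower in source water, and 0 passed the adjusted threshold of 0.05, which 0.0398% of all probe sets did. At an unadjusted limma p under 0.05 there were 2, 1 each of Apoa4 and Mttp and both higher, which is 13.3% against 6.02% of all probe sets, or 3.43% counting only those higher. The same 2 were the probe sets whose groups did not overlap, against 10.7% of all probe sets, or 5.52% counting only those higher. Both probe sets of Apoa4 differed by at least 1.5-fold, against 1.91% of all probe sets. The median log2 difference was 0.00063 over the 15 and -0.00896 over all probe sets. In the authors' deposited table, a count of 3 of the 15 had a p-value under 0.05, against 6.81% of all probe sets. With 1 array left out, the count of 2 probe sets became 1 where this was control replicate 1, 2 or 3 or source water replicate 1. It became 3 where the array was source water replicate 2.

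The 8 hepatocyte markers, all measured, had mean levels of 13.46 to 13.55 in control and 13.27 to 13.51 in source water (log2 signal). Those of 8 stellate cell markers were 6.69 to 6.86 in control and 6.96 to 7.13 in source water, with 2 higher and 1 lower at an unadjusted limma p under 0.05, and their part in the results was not tested. Array medians lay between 5.79 and 5.86. The 3′ minus 5′ signal of the mouse Actb control probe sets was 1.26 to 1.45 in control and 1.24 to 1.45 in source water (log2), and that of Gapdh 0.06 to 0.20 and 0.02 to 0.08.

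Apoa1, Apoa2, Apoc1, Apoc3 and Apoe gave signals near the top of the array's range. The highest mean of any probe set over the 6 arrays was 15.11, and 51 of all probe sets lay within 1 log2 unit of it. Among these 51 were 8 of the 15 probe sets described here, at ranks 3 to 38 of 22626 by mean signal. Apoc1, with a mean of 14.25, was the last inside this limit, and Apob, with 13.94, was the first outside it. Ranks of signal between probe sets are not ranks of RNA abundance.

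Probe sets this close to the top mostly varied little between arrays. Of the 51, 0 had an unadjusted limma p under 0.05, the largest log2 difference between the groups was 0.15, and the median SD within groups was 0.04. The moderated SE of limma draws on all probe sets and is mostly wider here than the spread of these pools gives. For Apoe, with SDs of 0.028 and 0.015 in the groups, the SE was 0.095. Differences of up to 0.15 could not reach that p with such an SE, so the count of 0 is not informative. The groups did not overlap for 7 of the 51, or 13.7% against 10.7% of all probe sets. For the 2218 probe sets 4 to 6 log2 units below the top, where both probe sets of Mttp and the second of Apoa4 lay, 12.2% had an unadjusted p under 0.05, and the median SD was 0.15. Differences between the groups were thus small for all probe sets measured near the top. No saturation flags were available, and closeness to the top was judged from signal level alone. As background, a probe set close to saturation responds less to a change in RNA, and the part of saturation in the values of these 5 genes was not tested.

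**Figure D1:**
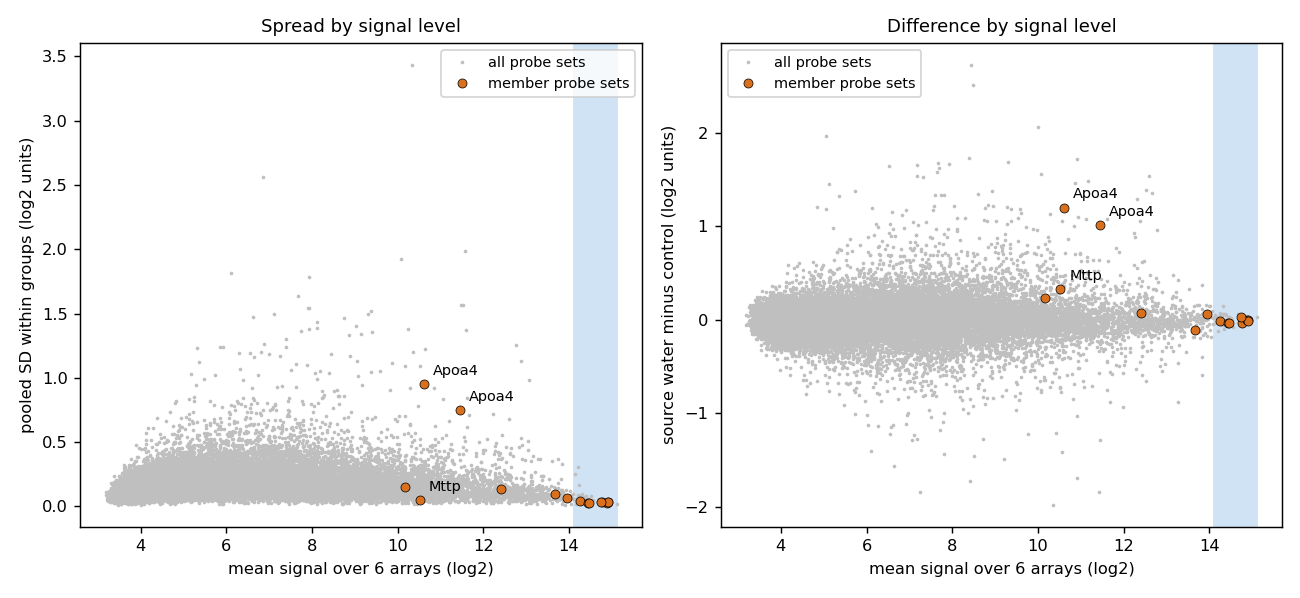
Pooled SD within groups (left) and log2 difference of source water minus control (right) against the mean log2 signal over 6 arrays, for all 22626 probe sets (grey) and the 15 described here (orange). The shaded band is within 1 log2 unit of the highest mean, 15.11, where most of the 51 probe sets show little spread and there is no difference above 0.15.

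**Figure D2:**
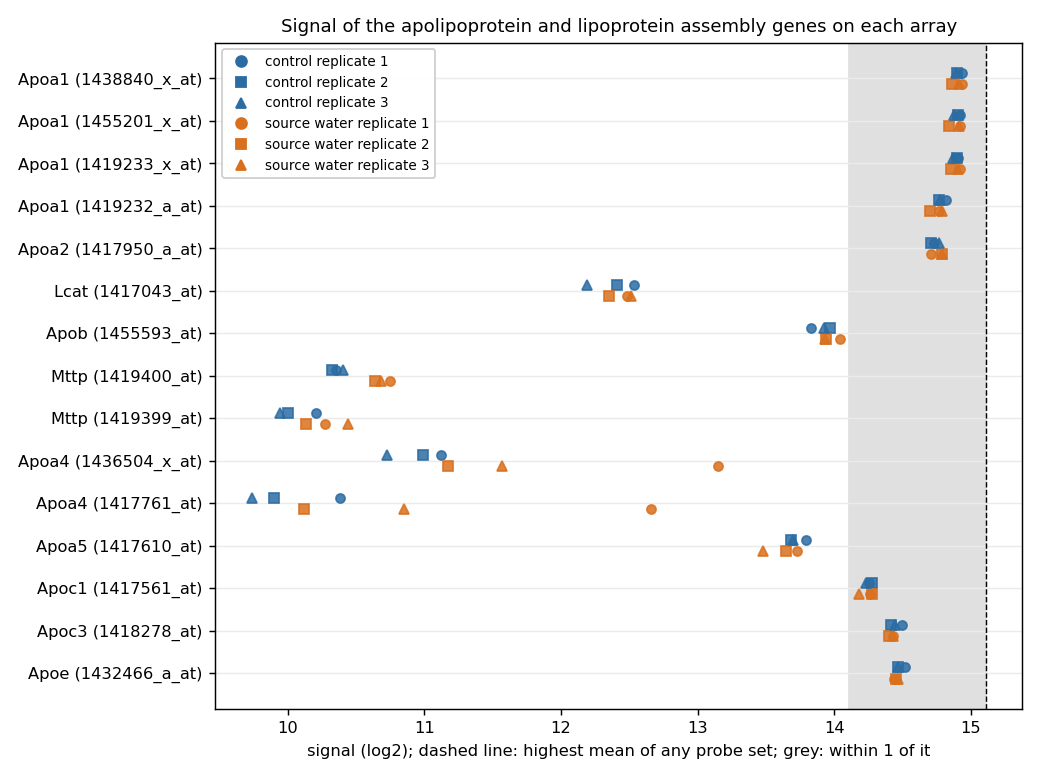
Log2 signal of the 15 probe sets on each array, control in blue and source water in orange, with symbols for replicates 1 (circle), 2 (square) and 3 (triangle). The dashed line is the highest mean of any probe set, 15.11, and the grey band is within 1 of it: 8 probe sets of 5 genes sit in the band with their arrays close together, while Apoa4 reaches from 10.72 to 13.15 by its first probe set.

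Apob, which encodes the structural protein of very-low-density lipoprotein that MTTP loads with lipid, gave 13.83, 13.97 and 13.93 in control and 14.04, 13.94 and 13.94 in source water replicates 1 to 3 (log2 signal). Source water replicate 1 was the highest array and the groups overlapped. The log2 difference was 0.07 ± 0.10 (SE), with a 95% interval of -0.17 to 0.30 (limma adjusted p = 0.999).

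Mttp was higher in source water by both of its probe sets, by less than Apoa4 and with less spread between pools. Probe set 1419400_at gave 10.35, 10.33 and 10.41 in control and 10.75, 10.64 and 10.68 in source water replicates 1 to 3 (log2 signal). The groups did not overlap, and the lowest source water array was well above the highest control array. The means were 10.36 ± 0.04 and 10.69 ± 0.06 (SD, n = 3 each), a log2 difference of 0.33 ± 0.10 (SE), or 1.25-fold, which did not pass over all probe sets (limma adjusted p = 0.533, unadjusted p = 0.0104). With each of the 6 arrays left out in turn the difference lay between 0.30 and 0.35, with unadjusted p between 0.0196 and 0.043 in the limma fit.

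The second probe set of Mttp, 1419399_at, gave 10.21, 10.00 and 9.94 in control and 10.27, 10.13 and 10.44 in source water replicates 1 to 3 (log2 signal). Its groups overlapped, with control replicate 1 above source water replicate 2. The log2 difference was 0.23 ± 0.13 (SE), or 1.17-fold (limma adjusted p = 0.949, unadjusted p = 0.105). In the authors' deposited table, Mttp had fold changes of 1.25 and 1.17 with p-values of 0.00117 and 0.0905.

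Apoa4 had the widest spread of the 10 genes. Its probe set of higher signal, 1436504_x_at, gave 11.12, 10.99 and 10.72 in control replicates 1 to 3 and 13.15, 11.17 and 11.57 in source water replicates 1 to 3 (log2 signal). All 3 source water arrays lay above all 3 control arrays, but source water replicate 2 was above control replicate 1 by a small margin and source water replicate 1 stood far above the other arrays. The group means were 10.95 ± 0.20 and 11.96 ± 1.04 (SD, n = 3 each), a log2 difference of 1.02 ± 0.44 (SE), or 2.03-fold, which did not pass the test over all probe sets (limma adjusted p = 0.823, unadjusted p = 0.0493).

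The other probe set of Apoa4, 1417761_at, gave 10.38, 9.90 and 9.74 in control and 12.66, 10.12 and 10.85 in source water replicates 1 to 3 (log2 signal). Source water replicate 1 was again the highest array, and here the groups overlapped, because control replicate 1 lay above source water replicate 2. The log2 difference was 1.20 ± 0.55 (SE), or 2.30-fold (limma adjusted p = 0.869, unadjusted p = 0.0617). Against the control mean, source water replicate 1 was at 4.61-fold by the first probe set and 6.28-fold by the second. Source water replicate 2 was at 1.17-fold and 1.08-fold, and source water replicate 3 at 1.54-fold and 1.79-fold. Without source water replicate 1 the log2 differences became 0.43 (unadjusted p = 0.0503) and 0.48 (unadjusted p = 0.118) in the limma fit. In the authors' deposited table, Apoa4 had fold changes of 2.03 and 2.30 with p-values of 0.0226 and 0.0292. Probe sets whose names end in _x_at hold probes that may also bind other transcripts, so the first value cannot be assigned to Apoa4 alone.

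Apoa4 is strongly expressed in intestinal epithelium as well as in mouse liver, so markers of that tissue were read on the same arrays. Of 8 fixed markers 6 were measured. Vil1, Cdx2, Lct and Cdh17 did not exceed 5.13 on any array (log2 signal), below the median of all values of 5.82, and their log2 differences were -0.12, -0.13, 0.01 and -0.04. Lgals4, which encodes a galectin, gave 5.76, 5.98 and 6.53 in control and 6.16, 6.41 and 6.42 in source water replicates 1 to 3 (log2 signal), and its groups overlapped. Fabp2, a fatty acid binding protein, gave 10.72, 10.67 and 11.10 in control and 11.68, 11.38 and 11.33 in source water replicates 1 to 3. Its groups did not overlap, and its log2 difference of 0.63 had an unadjusted limma p of 0.00341. The summed signal of the 6 markers was 10.80 to 11.21 in control and 11.41 to 11.74 in source water (log2 of the sum). This sum is mostly the Fabp2 signal and adds little to it, and the part of such cells in the Apoa4 values was not tested.

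**Figure D3:**
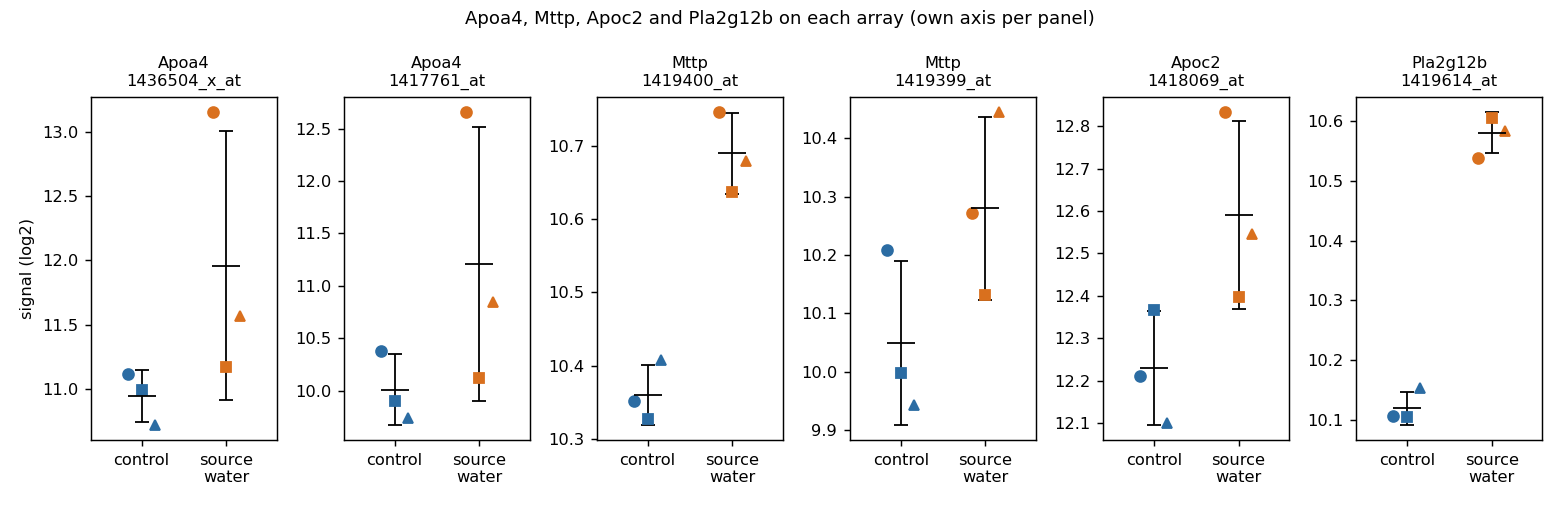
Log2 signal of Apoa4 and Mttp (2 probe sets each) and of Apoc2 and Pla2g12b on each array, control in blue and source water in orange. Bars are mean ± SD of 3 arrays, symbols mark replicates 1 (circle), 2 (square) and 3 (triangle), and each panel has its own axis. Source water replicate 1 is the highest point for both probe sets of Apoa4 and for Apoc2, while Pla2g12b and the first Mttp probe set separate the groups with little spread.

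Apoa5, which in mice promotes the clearance of triglyceride from plasma, gave 13.79, 13.68 and 13.70 in control and 13.72, 13.65 and 13.48 in source water replicates 1 to 3 (log2 signal). Source water replicate 3 was the lowest array and the groups overlapped, with a log2 difference of -0.11 ± 0.11 (SE) and a 95% interval of -0.36 to 0.15 (limma adjusted p = 0.999). Apoa5 lies next to Apoa4 on chromosome 9, and on source water replicate 1, where Apoa4 was highest, the Apoa5 value was within the range of the control arrays.

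Apoc3, an inhibitor of lipoprotein lipase and of remnant uptake that lies between Apoa1 and Apoa4, gave 14.49, 14.42 and 14.45 in control and 14.43, 14.40 and 14.43 in source water replicates 1 to 3 (log2 signal). The groups overlapped (log2 difference -0.03 ± 0.10, SE). Apoc1, which also slows the uptake of triglyceride-rich particles, gave 14.26, 14.28 and 14.23 in control and 14.27, 14.28 and 14.18 in source water (log2 difference -0.02 ± 0.10, SE). The lowest array for Apoc1 was source water replicate 3, which also had the lowest value for Apoa5.

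Apoa1, the main protein of high-density lipoprotein, was measured by 4 probe sets, all within 1 log2 unit of the top. Of these, 1438840_x_at, 1455201_x_at and 1419233_x_at hold probes that may also bind other transcripts. The leading Apoa1 probe set, 1438840_x_at, gave 14.93, 14.90 and 14.89 in control and 14.93, 14.86 and 14.92 in source water replicates 1 to 3 (log2 signal). The groups overlapped and no array stood apart. The 4 log2 differences ran from -0.03 to 0.00063, with 95% intervals between -0.25 and 0.22. Apoa2, its partner in the particle, gave 14.73, 14.71 and 14.77 in control and 14.71, 14.79 and 14.79 in source water (log2 difference 0.03 ± 0.10, SE).

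Lcat, the cholesterol-esterifying enzyme of high-density lipoprotein, gave 12.53, 12.41 and 12.19 in control and 12.48, 12.35 and 12.51 in source water replicates 1 to 3 (log2 signal). Control replicate 3 was the lowest array and the highest value was in control replicate 1, so the groups overlapped. The log2 difference of 0.07 ± 0.12 (SE) had a 95% interval of -0.21 to 0.35 (limma adjusted p = 0.999), and it was -0.02 without control replicate 3.

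Apoe, the remnant ligand, gave 14.52, 14.47 and 14.46 in control and 14.44, 14.45 and 14.47 in source water replicates 1 to 3 (log2 signal), with a log2 difference of -0.03 ± 0.10 (SE). Apoe is made by macrophages as well as by hepatocytes, and the summed signal of 10 Kupffer cell and macrophage markers was 12.96 to 13.75 in control and 13.17 to 13.73 in source water (log2 of the sum). These ranges overlap, and 0 of the 10 markers had an unadjusted limma p under 0.05. Limma adjusted p-values were 0.999 or above for all 8 probe sets of the 5 genes, and their 95% intervals together spanned -0.25 to 0.25. The width of these intervals reflects the moderated SE, which is larger than the spread of these pools gives.

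Other genes that make, remodel, take up or regulate lipoproteins were read from the same fit, 45 measured of 56 listed, each by its probe set of highest mean. Of these, 28 were higher and 17 lower in source water, where 6136 of all genes were higher and 6257 lower. The adjusted threshold was passed by 0 of the 45, against 0.0323% of all genes. At an unadjusted limma p under 0.05 there were 3 higher and 1 lower, or 8.89% against 6.76% of all genes (4.16% higher). Groups did not overlap for 7, 5 of them higher, or 15.6% against 11.5% of all genes (6.51% higher). Nr1d1 alone of the 45 differed by at least 1.5-fold, as 2.2% of all genes did. The median log2 difference was 0.05, and -0.0016 over all genes. The count of 4 was 2 without control replicate 1 or 3, and 8 without source water replicate 2.

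Of 12 measured genes of particle assembly and secretion 8 were higher and 4 lower. At an unadjusted limma p under 0.05 there was 1, or 8.33% against 6.76% of all genes. This was Pla2g12b, a catalytically inactive phospholipase family member that mice need for the secretion of triglyceride-rich lipoproteins. It gave 10.11, 10.11 and 10.15 in control and 10.54, 10.61 and 10.58 in source water replicates 1 to 3 (log2 signal). The groups were far apart for their spread, and no pool stood out. Its log2 difference was 0.45 ± 0.10 (SE), or 1.37-fold, and did not pass over all probe sets (limma adjusted p = 0.228, unadjusted p = 0.00142). Leaving out any array kept it between 0.44 and 0.47. In the authors' deposited table, Pla2g12b had a fold change of 1.37 with a p-value of 2.97e-05.

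Of 9 other apolipoproteins and proteins bound to high-density lipoprotein, 5 were higher and 4 lower. An unadjusted limma p under 0.05 was found for 1, or 11.1% against 6.76% of all genes. This was Apoc2, the activator of lipoprotein lipase, with 12.21, 12.37 and 12.10 in control and 12.83, 12.40 and 12.55 in source water replicates 1 to 3 (log2 signal). The groups did not overlap, and as for Apoa4 the highest array was source water replicate 1 and the lowest source water array was replicate 2, just above the control arrays. The log2 difference was 0.36 ± 0.14 (SE), or 1.29-fold (limma adjusted p = 0.732, unadjusted p = 0.0318), and 0.24 without source water replicate 1 (unadjusted p = 0.123).

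Of 6 lipase and remodelling genes 5 were higher and 1 lower, with 0 at an unadjusted limma p under 0.05, against 6.76% of all genes. The smallest p was that of Angptl4, an inhibitor of lipoprotein lipase, whose log2 difference was 0.22 ± 0.13 (SE). Its groups overlapped (limma unadjusted p = 0.119), and the mean of its probe sets differed by 0.16. Of 7 receptor and lipid export genes 5 were higher and 2 lower, again with 0 at that p. Abca1, the transporter that loads apolipoprotein A-I with cholesterol, had the smallest p, with a log2 difference of -0.20 ± 0.11 (SE) and overlapping groups (limma unadjusted p = 0.103).

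Of 11 transcription factor genes 5 were higher and 6 lower. An unadjusted limma p under 0.05 was found for 1 in each direction, or 18.2% against 6.76% of all genes. Nr1d1 encodes REV-ERB-alpha, a clock repressor whose known targets include Apoc3 in mice. It gave 5.61, 5.29 and 5.84 in control and 6.49, 6.46 and 6.44 in source water replicates 1 to 3 (log2 signal). The groups did not overlap, and the source water pools lay close together. The log2 difference was 0.88 ± 0.15 (SE; limma adjusted p = 0.105, unadjusted p = 0.000293). The control mean of 5.58 was below the median of all values of 5.82, and without detection calls in the files its distance from background is unknown, so the size of the difference is uncertain. Nr1d1 cycles over the day, and the part of the time of collection in this value was not tested.

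Ppara, the receptor that governs fatty acid oxidation and has several apolipoprotein genes among its targets, gave 10.42, 10.15 and 10.38 in control and 10.05, 10.03 and 9.94 in source water replicates 1 to 3 (log2 signal). Every source water array lay below every control array, with a log2 difference of -0.31 ± 0.11 (SE; limma adjusted p = 0.697, unadjusted p = 0.0249). With 1 array left out the difference lay between -0.39 and -0.26, with unadjusted p between 0.00895 and 0.0834 in the limma fit.

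**Figure D4:**
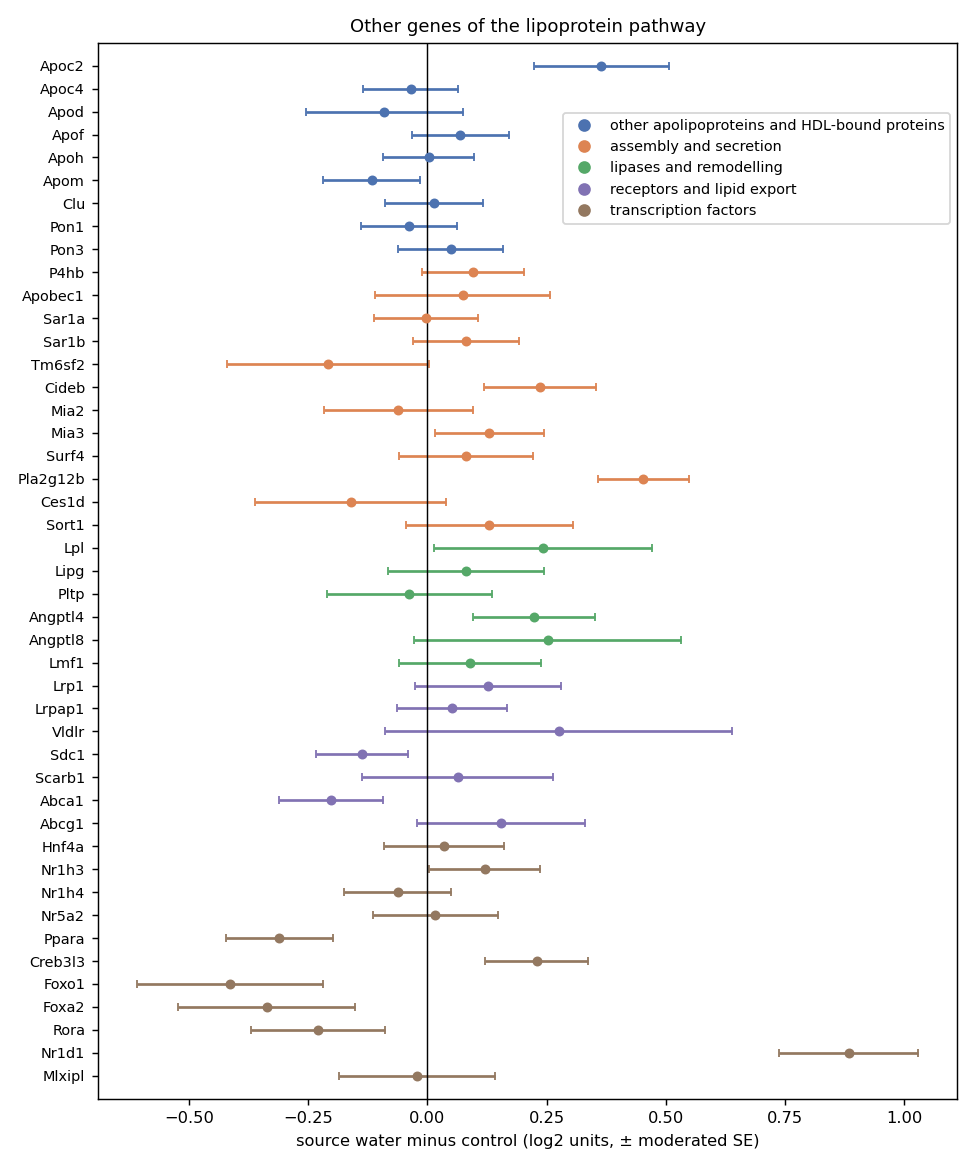
Log2 difference of source water minus control with its moderated SE for the 45 other lipoprotein pathway genes, coloured by role (3 arrays per group). Most lie close to 0, with Nr1d1 (0.88), Pla2g12b (0.45) and Apoc2 (0.36) furthest on the higher side and Foxo1 (-0.41) furthest on the lower side.

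The genes whose profile over the 6 arrays was most like that of Apoa4, among 1116 of sufficient level and spread, were Inca1, Rogdi, Ly6d and Zfp36. Their Pearson correlations with Apoa4 were 0.952, 0.938, 0.933 and 0.927, given as a description of 6 arrays. The genes were selected by this correlation over all 6 arrays, and source water replicate 1 dominates the Apoa4 profile. That it was also the highest array in each of these 4 genes therefore follows largely from the selection. Over the 5 other arrays the correlations of the genes so chosen were 0.803, 0.836, 0.552 and 0.596. Zfp36, which encodes an RNA-binding protein that promotes decay of cytokine mRNA, gave 8.68, 9.28 and 8.69 in control and 10.25, 8.97 and 9.31 in source water replicates 1 to 3 (log2 signal).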

How the data were processed

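The authors deposited a log2 signal for every probe set on every array. RMA and Partek are named in the submitters' processing notes, with versions and settings not given in the sources used here. A second deposited table, the authors' own comparison, holds group means on the log2 scale, a p-value from an unstated test, a linear ratio and a signed fold change, which as a score is negative where signal was lower in source water. These values are cited as the authors' and enter no test. The 64 control probe sets among 22690 did not enter the tests. Probe sets with several symbols (691) or none (1555) were named for no gene, and symbols looked up by Entrez identifier for 20351 probe sets changed in 0 cases. A gene was represented by its probe set of highest mean.

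Groups were compared by lmFit and eBayes of limma 3.58.1 (R 4.3.3) without covariates, with Benjamini-Hochberg adjustment over 22626 probe sets and a threshold of 0.05, and the code was tested on simulated data. Differences are source water minus control with the moderated SE, and intervals are at 95%. The members and lists were chosen with earlier results of these data known. Named genes were all members, pathway genes with an unadjusted p under 0.05 and groups that did not overlap (at most 4 a role, or else the gene of smallest p), and the 4 genes most like the member of largest SD, among genes with an SD of at least 0.3 and a mean above the median. Nothing says how pools were assigned to arrays. The p-values rest on the spread between these pools, moderated towards that of all probe sets, and not on the spread between animals.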

Additional observations from a re-analysis of the deposited data

How the results depend on the processing

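All alternatives were planned. Under each of them 0 member probe sets and 0 other pathway genes passed the adjusted threshold, and the differences of Apoa4, Mttp, Apoc2, Pla2g12b, Nr1d1 and Ppara kept their direction. Against 9 of all probe sets, a repeated quantile normalization called 30, limma-trend 35, the unmoderated statistic 0 (1249 without adjustment) and the fit with a replicate block 45. Against 2 member probe sets at an unadjusted p under 0.05, there was 1 under the repeated quantile normalization, under both filters on dim probe sets (mean above the median, mean of at least 6), with the unmoderated statistic and when a gene's probe sets were averaged, and there were 3 with limma-trend and with the replicate block. The unmoderated statistic, which uses only a probe set's own spread, gave unadjusted p-values of 0.173 and 0.198 for Apoa4 and 0.0012 and 0.129 for Mttp. The replicate block gave unadjusted limma p-values of 0.0147 and 0.0104 for Apoa4 and 0.0196 and 0.116 for Mttp and changed no adjusted call among these genes. Same-numbered arrays deviated together at -0.07, 0.28 and 0.17, so the numbers are not shown to pair the samples, and the highest correlation, 0.43, joined control replicate 1 to source water replicate 3. Leaving out 1 array gave 0 to 14 of all probe sets at the adjusted threshold and 1074 to 1623 without adjustment, 1 to 3 member probe sets and 2 to 8 other pathway genes at an unadjusted p under 0.05. Without control replicate 1 the count of 9 was 0, without control replicate 2 it was 14, without control replicate 3 it was 2 and without source water replicate 1 it was 1. Differences near 0 changed sign: Apoa1 was at 0.0042 after repeated quantile normalization and at 0.012 and 0.0092 (its 2 highest probe sets) with arrays centred on their medians, where Apoc1 was at 0.00059. With 1 array left out Apoa1 ranged from -0.019 to 0.016, -0.022 to 0.018 and -0.013 to 0.019 for 3 probe sets, Apoc1 from -0.034 to 0.015 and Lcat from -0.021 to 0.15. The cause of these changes was not tested. Within 0.5 log2 units of the highest probe set lay 5 of the 15 member probe sets and 12 of all, and within 1.5 units 10 and 118.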

Other observations

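For 13 genes of other abundant plasma proteins of the liver, among them Alb, Ttr and fibrinogen chains, the log2 differences of 17 probe sets ran from -0.12 to 0.09, with a median of 0.0045 and 0 at an unadjusted limma p under 0.05. Of these, fibrinogen genes Fga and Fgb were picked out after their values were seen. They were lowest in source water replicate 2, at 13.16 and 13.65 against 13.59 to 14.05 and 14.20 to 14.40 on the other arrays (log2 signal). The other fibrinogen gene, Fgg, gave 14.31 in that pool and was lowest in control replicate 3, at 14.27.

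Control replicate 1 was the highest array for 5 of the 10 member genes by representative probe set, against 15.1% of all genes, and source water replicate 1 for 3, against 12.2% of all genes. The 5 were Apoa1, Lcat, Apoa5, Apoc3 and Apoe. For Apoa1 this rests on 14.934 against 14.9332 in source water replicate 1 (log2 signal). By its probe sets 1455201_x_at and 1419233_x_at, source water replicate 1 was the highest array. The whole range over the 6 arrays was 0.09 log2 units for Apoc3 and 0.08 for Apoe.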
